A study of Mus musculus with 9 samples.

Results

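Genes that cells switch on when oxygen runs short were examined in prostate stroma of CR2-TAg mice. The genes were chosen by name (Adm, Angptl4, Vegfa, Bnip3, Ndrg1, Hif1a and Egln3), and 5 of the 7 had spotted cDNA clones named in the platform's probe table, with 11 clones among 17664 rows. Adm had 4 clones, Hif1a 3, Ndrg1 2, and Angptl4 and Bnip3 1 each. Vegfa and Egln3 were named by no row and were not analysed here. The mice were FVB males hemizygous for CR2-TAg, a transgene in which regulatory elements of the cryptidin-2 gene drive SV40 large T antigen in prostatic neuroendocrine cells, so both groups carried the oncogene. Stroma was laser-microdissected from 6 mice with invasive cancer at 24 weeks of age and from 3 mice with prostate intraepithelial neoplasia (PIN) at 10 weeks of age (replicates 2, 3 and 4), each mouse giving 1 array. Age and stage changed together and cannot be told apart, and the invasive samples were dissected from a wider band around the epithelium. On every array the sample was labeled with Cy5 and a pool of 4 PIN samples with Cy3. There was no dye swap, and the pool held the PIN samples that were set against it.

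Oxygen is sensed by prolyl hydroxylases (the Egln genes), which mark the HIF alpha subunits for capture by the von Hippel-Lindau protein and for destruction by the proteasome. When oxygen falls the alpha subunit, such as the product of Hif1a, persists, pairs with Arnt and binds a short core in target genes. Because this control acts on the protein, the mRNA of Hif1a itself need not follow the activity of the factor. Known targets include secreted factors (Adm, Angptl4, Vegfa), a mitochondrial protein of mitophagy and cell death (Bnip3), a cytoplasmic stress protein (Ndrg1), the sensor Egln3 and most enzymes of glycolysis. Several of these targets, Angptl4, Plin2 and Hmox1 among them, are also known to respond to other signals such as fatty acids or oxidative stress.

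The core recognized by HIF is shown here to let the reader see what the name of the group refers to. It is given for the 3 measured members with a window in the set of RefSeq promoter windows used (build GRCm38.p6). Each window is the 250 bases before the gene start, written 5′ to 3′ on the strand of the gene. The cores ACGTG and GCGTG and their reverse complements CACGT and CACGC are in capitals, and overlapping cores run together. Adm lies at chr7:110627407-110627656 (plus strand), Bnip3 at chr7:138909507-138909756 (minus strand) and Hif1a at chr12:73907617-73907866 (plus strand).
Adm: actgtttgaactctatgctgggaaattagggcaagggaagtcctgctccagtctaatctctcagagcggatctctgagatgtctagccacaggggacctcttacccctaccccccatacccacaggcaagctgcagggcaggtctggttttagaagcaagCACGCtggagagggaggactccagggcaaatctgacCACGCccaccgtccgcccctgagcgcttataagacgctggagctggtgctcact
Bnip3: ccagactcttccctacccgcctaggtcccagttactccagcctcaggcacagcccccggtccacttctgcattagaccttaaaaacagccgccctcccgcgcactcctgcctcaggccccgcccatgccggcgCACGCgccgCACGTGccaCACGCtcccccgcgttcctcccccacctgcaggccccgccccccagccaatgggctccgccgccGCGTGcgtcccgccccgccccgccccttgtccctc
Hif1a: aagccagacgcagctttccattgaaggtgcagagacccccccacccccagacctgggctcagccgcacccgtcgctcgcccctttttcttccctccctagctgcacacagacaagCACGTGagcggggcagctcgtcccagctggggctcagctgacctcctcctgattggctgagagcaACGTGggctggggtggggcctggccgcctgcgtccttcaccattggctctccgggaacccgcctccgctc
The window of Adm held 2 cores, beginning 90 and 54 bases before the start. The window of Bnip3 held 5 cores in 4 stretches, and that of Hif1a 3 cores in 2 stretches. Of 32851 RefSeq windows of this length, 38.6% held at least 1 core, 16.7% at least 2, 6.58% at least 3 and 1.01% at least 5. A match of 5 letters is a description of the sequence and not a binding site. Of the 2 members that passed the test below, Adm had a window in the set used and Angptl4 had none there. A relation of cores to the test was not tested.

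The value of a clone on an array is the log2 ratio of the sample over the PIN pool, as normalized by the authors. The clones of a gene were averaged on each array, and invasive minus PIN was tested with limma over 8106 genes. A gene passed at an adjusted p (Benjamini-Hochberg) under 0.15, the false discovery rate that the study used. The arrays had medians of -0.00 to 0.01 over all clones. PIN replicate 4 stood apart from the other PIN arrays, with a Pearson r over clones of 0.18 and 0.19 with them, where they had 0.67 with each other. Invasive replicate 3 had r of 0.26, 0.31 and 0.34 with invasive replicates 6, 5 and 2, and 0.49 and 0.56 with 4 and 1. Pairs of the other invasive arrays had 0.40 to 0.77. Between the groups, invasive replicate 3 had r of 0.53, 0.44 and 0.25 with PIN replicates 2, 3 and 4. PIN replicate 4 had 0.22 to 0.29 with the invasive arrays. Invasive replicate 1 had 0.51 with PIN replicate 2 and 0.40 with invasive replicate 6. By r, an array was thus not always closer to its own group than to the other. In bulk RNA such as this, more cells of a type and more RNA per cell cannot be told apart.

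Among the secreted factors, Adm and Angptl4 rose in invasive cancer stroma. Adm, which encodes the vasodilator peptide adrenomedullin, was 2.97-fold higher, and Angptl4, which encodes an inhibitor of lipoprotein lipase, 2.85-fold higher. The remaining measured members, Bnip3, Hif1a and Ndrg1, did not pass. So 2 of 5 member genes were higher and 0 lower, where 3.75% of all genes tested were higher and 1.89% lower. The median difference of the 5 genes was 0.55 on the log2 scale, beside 0.02 over all genes.

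**Figure D1:**
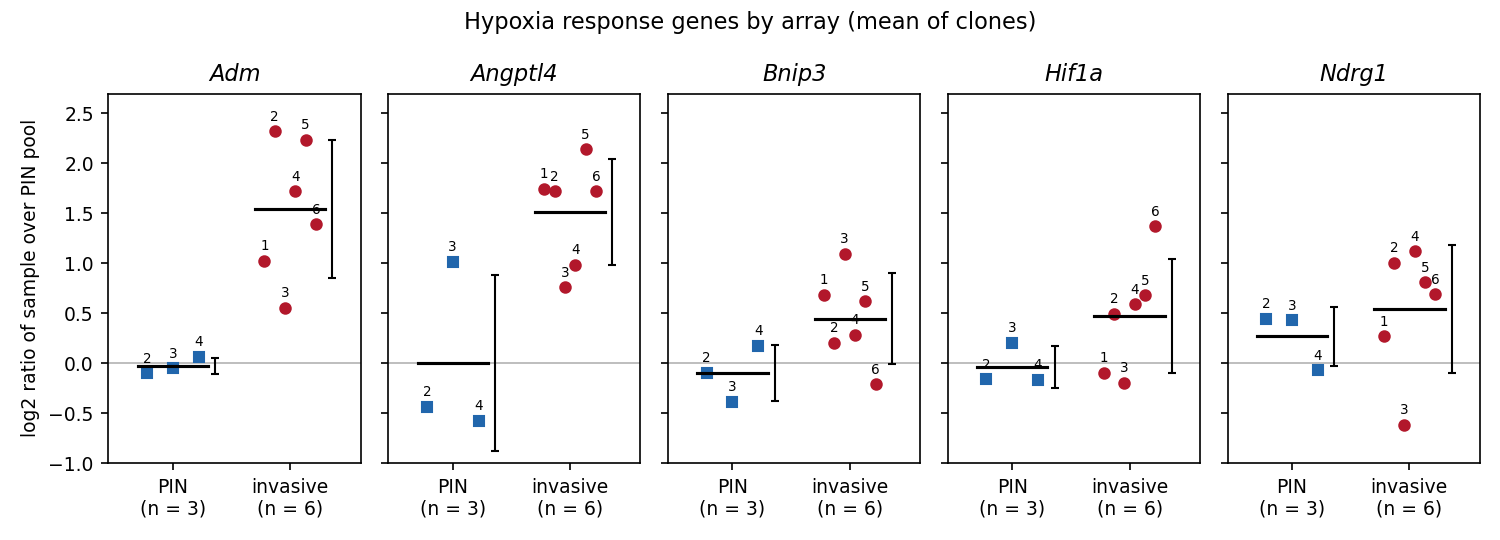
Log2 ratio of sample over PIN pool (vertical axis) for the 5 measured genes, as the mean of clones on each array. Squares are the 3 PIN arrays and circles the 6 invasive arrays, each with its replicate number, and bars show the group mean with the SD beside it. The invasive arrays of Adm lie from 0.56 to 2.32, above all PIN arrays, and the groups of the other genes overlap.

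Adm had log2 ratios of -0.10, -0.05 and 0.06 on PIN replicates 2, 3 and 4, and of 0.56 (lowest), 1.56 (median) and 2.32 (highest) on the invasive arrays. Each invasive array was higher than all PIN arrays, which was so for 1 of the 5 member genes and for 4.86% of all genes. Invasive stroma averaged 1.54 ± 0.69 (SD, n = 6) and PIN stroma -0.03 ± 0.08 (SD, n = 3). The spread was thus far wider among the invasive arrays, where replicates 2 and 5 were highest and replicate 3 lowest. The log2 difference was 1.57 (SE 0.35, 95% interval 0.81 to 2.33, adjusted p = 0.0565 from limma), which placed Adm 103rd of 8106 genes by p. Clones of Adm are among those that the study itself selected on these arrays and a further PIN array not used here. This call is therefore not independent of that selection. The adjusted p rose to 0.229 with PIN replicate 2 left out, to 0.185 with PIN replicate 3 left out and to 0.214 in the methods' t-test with equal variances, and the difference stayed between 1.41 and 1.77 when any 1 array was left out. Without PIN replicate 4, the PIN array that stood apart, the difference was 1.62 (adjusted p = 0.106 from limma).

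The 4 clones of Adm gave one direction and different sizes. Clone 4 differed by 1.96 (SE 0.41, adjusted p = 0.0638 in limma over all clones), clone 3 by 1.92 (SE 0.41, adjusted p = 0.0697) and clone 2 by 1.15 (SE 0.31, adjusted p = 0.148). Clone 1 had a difference of 1.25 and did not pass (SE 0.44, adjusted p = 0.251). On clone 1 invasive replicate 3, at 0.20, lay within the PIN values of -0.06, 0.20 and 0.47, and on the other 3 clones the groups did not overlap. In all, 4 of the 11 member clones passed, where 1.52% of 17207 clones were higher. Without PIN replicate 2 none of the 11 passed (0.169% of all clones were higher), with adjusted p in limma of 0.396, 0.287 and 0.292 for clones 2, 3 and 4 of Adm and 0.429 for that of Angptl4. With PIN replicate 3 or invasive replicate 4 left out 1 passed (0.308% and 0.511% of all clones), and with PIN replicate 4, invasive replicate 2 or invasive replicate 5 left out 2 passed (1.04%, 0.709% and 0.587%). Clone 2 of Adm passed in 7 of 19 alternatives at the threshold of 0.15 and missed it under median centring (adjusted p = 0.1503), and the clone of Angptl4 passed in 8 of 19. In 3 of the 11 the groups were fully separated with invasive stroma higher, where 3.73% of clones were.

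Angptl4, measured by 1 clone, had log2 ratios of -0.43, 1.02 and -0.57 on PIN replicates 2, 3 and 4. On the invasive arrays its lowest, median and highest values were 0.76, 1.72 and 2.15. PIN replicate 3 was higher than invasive replicates 3 and 4, at 0.76 and 0.98, so the groups overlapped on that array. The log2 difference was 1.51 (SE 0.38, 95% interval 0.68 to 2.34, adjusted p = 0.0825 from limma over genes), with means of 1.51 ± 0.53 (SD, n = 6) and 0.00 ± 0.88 (SD, n = 3). The difference was 2.02 (adjusted p = 0.0404) without PIN replicate 3, and leaving out PIN replicate 2 or 4 gave 1.29 (adjusted p = 0.318) or 1.22 (adjusted p = 0.198). It was 1.38 (adjusted p = 0.151) without invasive replicate 5, 1.32 (adjusted p = 0.155) with the arrays scaled to one spread and 1.19 (adjusted p = 0.279) after quantile normalization, and it did not pass in the methods' t-test with unequal (adjusted p = 0.421) or equal variances (adjusted p = 0.249).

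**Figure D2:**
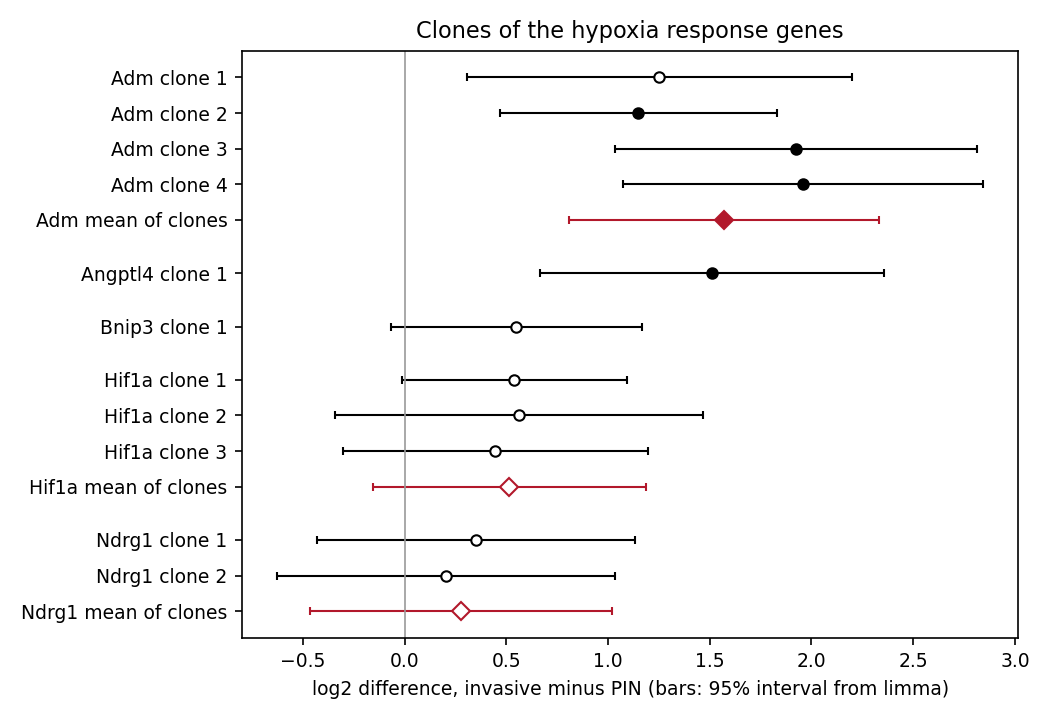
Log2 difference of invasive minus PIN stroma (horizontal axis) with its 95% interval from limma for each of the 11 clones (circles) and for the mean of clones of a gene (diamonds). Filled symbols passed at an adjusted p under 0.15. All points lie above 0, from 0.20 for a clone of Ndrg1 to 1.96 for a clone of Adm.

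Hif1a encodes the oxygen-regulated subunit of the factor itself. Its mean of 3 clones was -0.16, 0.21 and -0.16 on PIN replicates 2, 3 and 4, and -0.19 (lowest), 0.54 (median) and 1.37 (highest) on the invasive arrays. Invasive replicate 6 was highest on each of the 3 clones, at 0.84, 1.74 and 1.54, and invasive replicates 1 and 3 lay within or near the PIN range. The log2 difference was 0.52 (SE 0.31, 95% interval -0.16 to 1.19, adjusted p = 0.482 from limma). The clones had similar differences of 0.54, 0.56 and 0.45, and none passed.

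Bnip3, which encodes the mitochondrial BH3-only protein, was measured by 1 clone at -0.10, -0.38 and 0.17 on PIN replicates 2, 3 and 4. Its invasive arrays ranged from -0.21 through a median of 0.45 to 1.10. The groups overlapped through invasive replicate 6, which lay below PIN replicates 2 and 4. The log2 difference was 0.55 (SE 0.27, 95% interval -0.04 to 1.14, adjusted p = 0.365 from limma), or 1.46-fold, which did not pass.

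Ndrg1, which encodes a stress-responsive cytoplasmic protein, was 0.45, 0.43 and -0.07 on PIN replicates 2, 3 and 4 over its 2 clones. The invasive arrays held both the lowest value of the gene, -0.61 on replicate 3, and the highest, 1.12 on replicate 4, with a median of 0.75. The log2 difference was 0.28 (SE 0.34, 95% interval -0.46 to 1.02, adjusted p = 0.783 from limma). The clones had differences of 0.35 and 0.20. The intervals of Hif1a, Bnip3 and Ndrg1 include 0 and also changes of more than 1 on the log2 scale, so these arrays show neither a rise nor its absence.

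The members did not vary as 1 group over the 6 invasive arrays, where Bnip3, measured by 1 clone, went the other way. Its Pearson r with the other members was -0.36 to -0.89. Adm, Angptl4, Hif1a and Ndrg1 had r of 0.42 to 0.86 with each other. An r over 6 arrays is imprecise and none was tested, so these values describe these arrays only. Invasive replicate 3 was the lowest of the 6 for Adm, Angptl4, Hif1a and Ndrg1 and the highest for Bnip3. Invasive replicate 6 was the highest for Hif1a and the lowest for Bnip3. Invasive replicate 5 was highest for Angptl4 and second for Adm and Hif1a.

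Invasive replicate 3 was also at an extreme in cell type markers. On invasive replicate 3 the median of 3 macrophage markers was 1.06, against 2.71 to 3.15 on the other invasive arrays. The median of 8 fibroblast markers was 0.18 there and 1.08 to 1.35 on the others, and that of 5 endothelial markers was 0.32 there and 1.14 to 1.64 on the others. The median of 3 neuroendocrine tumor markers was highest there, at 2.52, against 0.20 to 1.62 on the others and -0.27 to -0.02 on the PIN arrays. The smooth muscle and epithelium medians were also the highest of the invasive arrays there, at -0.39 and -0.06. Without invasive replicate 3 the difference of Adm was 1.77 (adjusted p = 0.0074 from limma) and that of Angptl4 1.66 (adjusted p = 0.0280). In that fit 7.43% of all genes were higher, against 3.75% with all arrays, so the lower adjusted p is not particular to these genes.

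Between the groups, all 3 macrophage markers (Lyz2, Cd14 and Fcgr3) and 3 of 8 fibroblast markers were higher, with median differences of 2.77 and 1.05. Of 5 endothelial markers 1 was higher (median 1.08), and of 4 smooth muscle markers 2 were lower (median -2.08). No marker of epithelium passed among 4 (median -0.40), and 1 of 3 neuroendocrine tumor markers was higher (median 0.98). Of 5 adipocyte markers 1 was higher (median 0.18), and the 1 skeletal muscle marker did not pass (0.17). The adipocyte marker that was higher was Lpl, the same gene that is given below as a partner of Angptl4. Over all genes tested, 3.75% were higher and 1.89% lower. The part of these cell types in the differences of Adm and Angptl4 was not tested, and ratios to a pool do not give the level of a marker, so the purity of the stroma was not read from them.

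**Figure D3:**
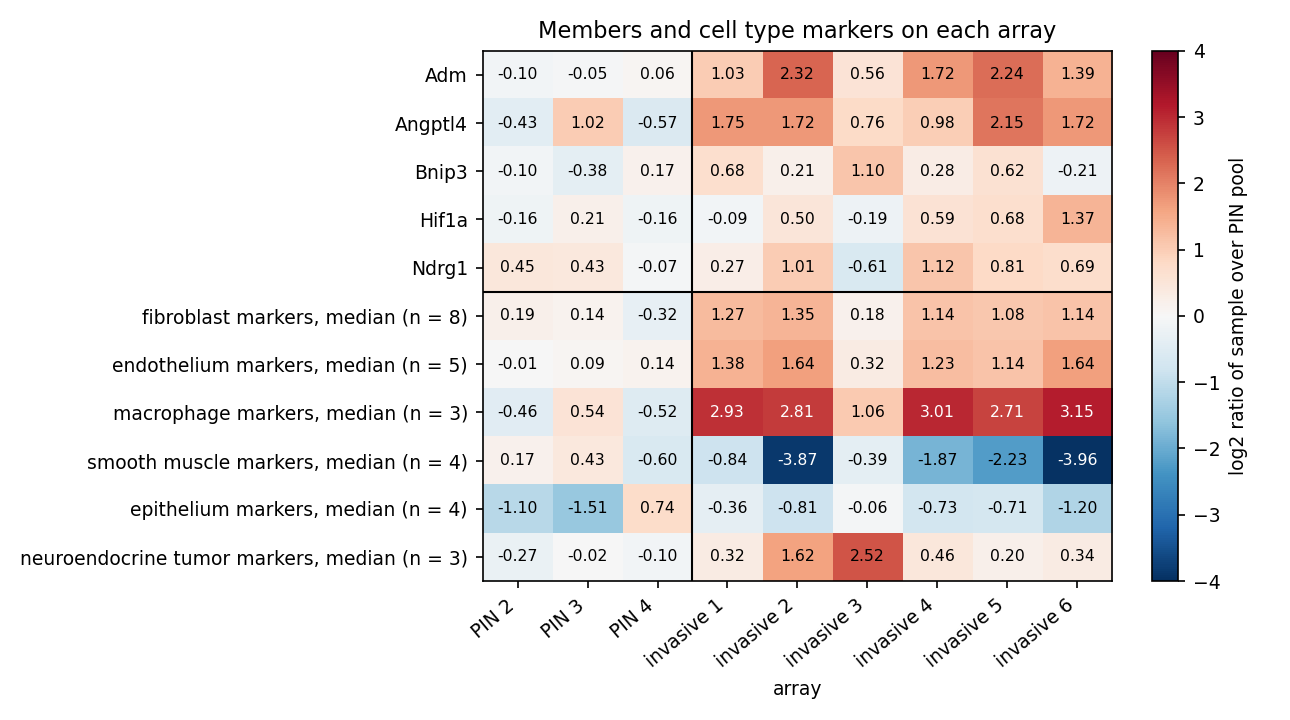
Log2 ratio of sample over PIN pool (color scale and printed values) on the 3 PIN and 6 invasive arrays for the 5 measured genes and for the median of the markers of 6 cell types, with the number of markers measured. Invasive replicate 3 has the lowest invasive value of Adm, at 0.56, and of the macrophage median, at 1.06.

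The rest of the pathway was described from lists of named genes. Over 67 such genes outside the members, 9 were higher and 1 lower, with a median difference of 0.17. Of all genes tested, 3.75% were higher and 1.89% lower. In the machinery of oxygen sensing and HIF itself, no gene passed. The 13 genes tested besides Hif1a had differences from -0.69 to 0.44 and a median of -0.05. The smallest p-values in that list were those of Hif3a, an alpha subunit with inhibitory isoforms, at -0.69 (SE 0.27, adjusted p = 0.240 from limma), and of the prolyl hydroxylase gene Egln2, at -0.61 (SE 0.26, adjusted p = 0.283). The partner gene Arnt (-0.05, 95% interval -0.47 to 0.37), Vhl (-0.05, -0.48 to 0.39) and the main hydroxylase gene Egln1 (-0.02, -0.52 to 0.47), named after their values were seen, had intervals that leave out a change of 1 on the log2 scale.

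Among HIF targets outside glycolysis, 5 of 28 further genes were higher and none lower, where 3.75% of all genes were higher and 1.89% lower. The median difference of the 28 was 0.15. Plin2, which coats lipid droplets, had log2 ratios of -0.44, -0.28 and 0.17 on the PIN arrays and of 0.66 to 2.80 on the invasive arrays, and differed by 1.99 (SE 0.38, adjusted p = 0.0371 in limma). Hmox1, the heme-degrading enzyme, was 0.12, 0.52 and -0.32 in PIN and 0.80 to 1.37 in invasive stroma, and differed by 1.10 (SE 0.22, adjusted p = 0.0431). For both genes no invasive array reached down to the PIN arrays. Trf, the iron carrier transferrin, was 4.75-fold higher (2.25, SE 0.50, adjusted p = 0.0565) and Igfbp3, which binds insulin-like growth factors, 6.83-fold higher (2.77, SE 0.64, adjusted p = 0.0602), both with overlapping groups. Like Adm, these 4 genes were lowest on invasive replicate 3 among the invasive arrays. Bnip3l, the close relative of Bnip3, was 1.78-fold higher on the mean of 3 clones (0.83, SE 0.26, adjusted p = 0.148), and none of those clones passed alone. Plin2, Hmox1 and Trf lost the call without PIN replicate 2, Igfbp3 without PIN replicate 2 or 3, and Bnip3l without any 1 of 7 of the 9 arrays.

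Among the genes of glucose uptake and glycolysis, 1 of 18 was higher, where 3.75% of all genes were, with a median difference of 0.21. A count this small does not set the list apart from all genes. That gene was Ldha, which makes lactate from pyruvate. Its log2 ratios were -0.33, -0.37 and 0.17 on the PIN arrays and 0.33 to 1.70 on the invasive arrays, which differed by 1.39 (SE 0.28, adjusted p = 0.0458 in limma), with nearly equal differences of 1.39 and 1.39 on its 2 clones. Unlike Adm, it was lowest on invasive replicate 1, and replicate 3 was its second highest. Its call was lost without PIN replicate 2 or 3.

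Of the VEGF family and its receptors only 3 of 14 listed genes were measured, and none of the ligands. The coreceptor gene Nrp1 was 2.01-fold higher (1.01, SE 0.22, adjusted p = 0.0565 from limma), but its 2 clones differed, at 1.81 and 0.20, and the call was lost without PIN replicate 3. Among relatives and partners of the members, Lpl, the lipase that Angptl4 inhibits, was 5.38-fold higher (2.43, SE 0.49, adjusted p = 0.0431), and Gpihbp1, which anchors that lipase on capillary walls, 4.85-fold higher (2.28, SE 0.43, adjusted p = 0.0366). Both lost the call without PIN replicate 2. Ndrg2, a relative of Ndrg1, fell by 0.94 on the log2 scale (SE 0.29, adjusted p = 0.138), with all invasive arrays below all PIN arrays (2.99% of all genes), and lost the call without any 1 of 6 of the 9 arrays. Of the 7 genes of this list, 3 were higher and 1 lower, where 3.75% of all genes were higher and 1.89% lower. Besides Lpl and Gpihbp1 the higher gene was Bnip3l, which was also counted among the HIF targets outside glycolysis. The total over all lists counts it once.

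**Figure D4:**
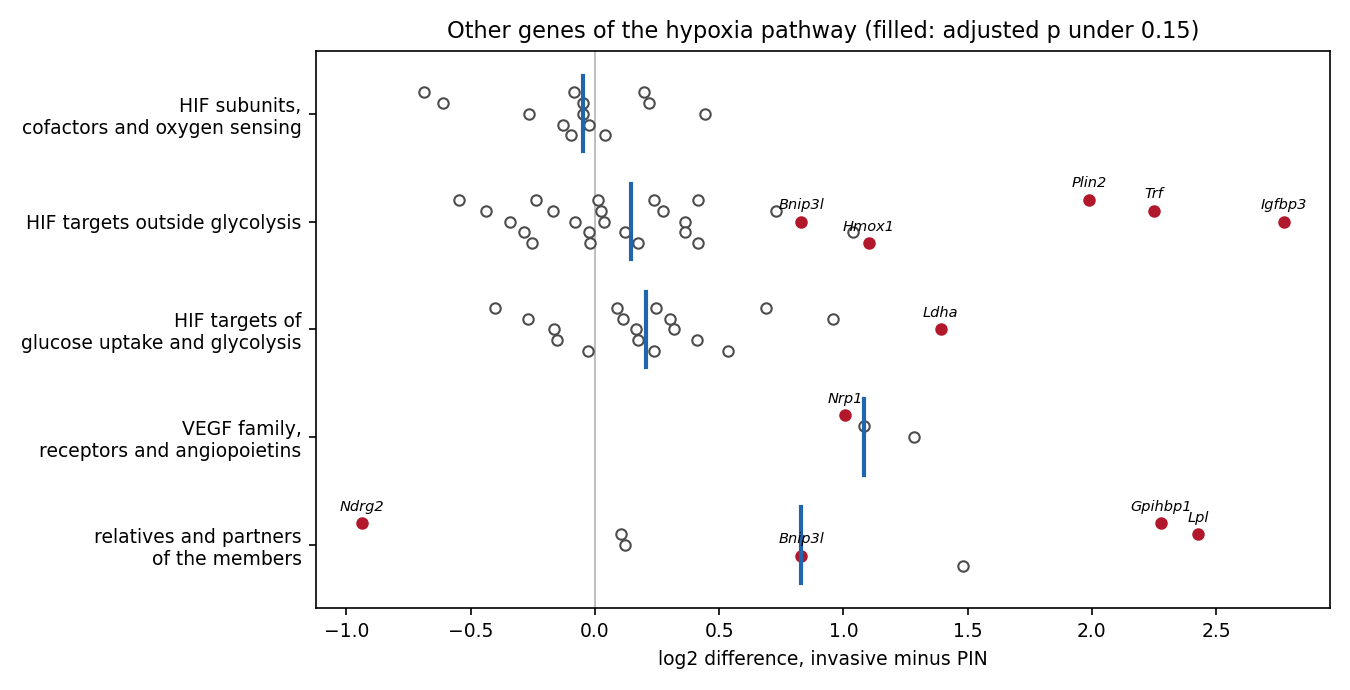
Log2 difference of invasive minus PIN stroma (horizontal axis) for the genes of 5 pathway lists outside the members, 1 point per gene, with the vertical bar at the median of the list. Filled points passed at an adjusted p under 0.15 and are named. Igfbp3 is farthest to the right at 2.77, and no gene of HIF and oxygen sensing passed.

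The genes with the closest pattern to each member over the 9 arrays were found by Pearson r among 8086 other genes, as a description, since all 9 points share the pool and the difference between groups. For Adm these were Cndp2 (r = 0.982) and the lysosomal gene Ctsa (r = 0.980). For Angptl4 they were Cdc42ep1 (r = 0.946) and Gas6 (r = 0.942), for Bnip3 Hoxa5 (r = 0.939) and Pcnx4 (r = 0.934), for Hif1a Slc45a4 (r = 0.953) and Bzw1 (r = 0.950), and for Ndrg1 Klf6 (r = 0.944) and Nfe2l2 (r = 0.935). No member was among the closest genes of another.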

How the data were processed

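Each deposited value is the log2 ratio of a sample (Cy5) to the PIN pool (Cy3). According to the methods, the authors extracted spot intensities with ScanAlyze and applied lowess within print-tip groups in the SMA package, with no background subtraction, after repeated linear amplification of the RNA. Dim spots therefore stay in and can draw a ratio toward 0. Spot intensities were not used here, so signal over background is not given, and the number of arrays limits the precision. Scale and direction were checked against the study's supplement, where the mean and SD over the invasive arrays matched a row for 396 of 396 listed clones (tolerance 0.001). The arrays held 17189 to 17206 values each.

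Rows were named by the platform's probe table, in which 12563 rows had 1 symbol, 412 had several and 4689 had none; members were taken only from rows with 1 symbol. A clone entered the test if 4 or more invasive and 2 or more PIN arrays had a value. The test was limma 3.58.1 in R 4.3.3 (lmFit, eBayes, two-sided, Benjamini-Hochberg over all genes or all clones); for genes, clones were averaged per array. The fit was tested on simulated data first. Of 100 genes raised by 1 on the log2 scale 62 passed, and of 100 raised by 2, 95 passed. In the same data 29 unchanged genes passed, and 0 genes passed when none was changed. No set test was run. Promoter windows came from a set of RefSeq windows (GRCm38.p6), and that set held 3 of the 5 measured members. Summaries used pandas 2.3.3 in Python 3.11.15, and plots matplotlib 3.10.9.

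Members, lists, tests and alternatives were all chosen with earlier results of these data known, so no list is independent support. Named are all members, up to 4 passing genes of each pathway list by smallest p (2 where none passed) and the 2 genes closest in pattern to each member. Other genes are marked where they appear. Each sample came from 1 mouse, and the labels give no batch. Alternatives were the methods' t-test (its variance form is not given in the sources used here), array weights, robust moderation, other normalizations and summaries of clones, the invasive arrays against the pool, a replicate block, a threshold of 0.05 and leaving out each array. The study ran its t-test with 4 PIN arrays, of which 3 were used here.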

Additional observations from a re-analysis of the deposited data

Results flagged for a closer look

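Hmox1 was flagged because 1 invasive array lay far from the others: invasive replicate 3 was at a log2 ratio of 0.801, and the nearest of the other invasive arrays was at 1.2, a gap of 0.692 of the range of the 6 arrays. It was 1 of 28 such groups examined, and chance flags about 1 in 20. All invasive arrays of Hmox1 still lay above the PIN arrays.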

How the results depend on the processing

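No difference of a member gene or clone changed its sign under any alternative (0 of 330 values). At the threshold of 0.15, Adm passed in 17 and Angptl4 in 13 of 21 alternatives, with adjusted p from 0.00122 to 0.229 and from 0.000485 to 0.421. Counts of calls are given with the percent of all genes tested that were higher in the same fit, 3.75% as reported. The number of member genes that were higher, 2 as reported, was 1 in the methods' t-test with unequal variances (1.75%), 0 with equal variances (0.444%), 1 with scaling between arrays (3.24%), 1 with quantile normalization (2.58%), 5 with the invasive arrays against the pool (17.5%) and 0 at an adjusted p under 0.05 (0.703%). It was 0 to 2 when 1 array was left out: 0 without PIN replicate 2 (0.346%), and 1 without PIN replicate 3 (0.827%), PIN replicate 4 (3.21%) or invasive replicate 5 (1.96%). Against the pool the spread of PIN stroma is left out. The number of other pathway genes that were higher, 9 as reported, was 4 in the methods' t-test with unequal variances, 1 with equal variances, 17 with array weights (12.5%), 21 against the pool and 5 at an adjusted p under 0.05. It was 1 to 13 without 1 array, with 1 and 5 without PIN replicates 2 and 3 (0.346% and 0.827%) and 13 without invasive replicate 3 (7.43%). The number lower, 1 of 67 as reported, is given with the number of all 8106 genes that were lower, 153 as reported. It was 0 in the methods' t-test with unequal (65) and equal variances (18), with scaling (111) and at 0.05 (19). It was 4 with array weights (616), 5 against the pool (1180), and 0 to 2 without 1 array (9 to 294). Array weights gave Bnip3 an adjusted p of 0.121. Of the 11 member clones, 4 as reported passed, and 0 in either form of the methods' t-test or with the block, where 0.227%, 0.145% and 0.198% of all clones were higher. The study's own t-test had 4 PIN arrays where 3 were used here, and its list holds 3 of these clones.

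The labels give invasive and PIN mice the same replicate numbers without saying that a number marks a shared litter, batch or day. With the number as a replicate block, 0 member genes were higher, with Adm at 1.56 (adjusted p = 0.199 from limma) and Angptl4 at 1.15 (adjusted p = 0.406). In that fit 4 pathway genes were higher and 0 lower, where 0.95% of all genes were higher and 13 of 8106 lower. For replicates 2, 3 and 4, deviations of same-numbered arrays from their group means had r of -0.086, -0.100 and -0.019. The highest r of these invasive arrays with PIN arrays of another number was 0.073, 0.144 and 0.025. With 3 PIN arrays that share the pool, these values cannot settle whether the numbers pair the samples.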
